A study of Mus musculus with 180 samples.

Results

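The comparison described here is that of Afatinib with the vehicle DMSO in macrophages stimulated with LPS. Its members were taken by their labels, with earlier results of these data known. They are the 3 samples pre-treated with Afatinib and the 6 pre-treated with DMSO, of 180 samples in the study. Bone marrow-derived macrophages (BMDM), which are grown in culture from the bone marrow of wild type male C57/BL6 mice, were exposed for 1 h to 1 of 58 clinical kinase inhibitors (CKIs) or to DMSO and then for 2 h to LPS at 10 ng/ml. LPS, the endotoxin of Gram-negative bacteria, was given to all samples used here, so none of them shows the level of a gene without it. PolyA RNA was sequenced from 3 independent biological replicates for each CKI. DMSO has 2 labelled sets of 3 samples, which together were the reference. Of the 45070 genes in the table, 12714 had a mean of 10 or more over the 180 samples and were tested.

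Afatinib is an irreversible inhibitor of the ERBB receptor tyrosine kinases, which act mainly in epithelial cells and in carcinomas. In this study it was used at a concentration chosen for binding to MAPK9 (JNK2), a stress-activated MAP kinase, and the kinases listed for that concentration also included MAPKAPK2, MAPK14 (p38α) and GAK. TLR4, the receptor of LPS, signals through NF-kB and through the p38, JNK and ERK MAP kinases to the genes of inflammation and to the feedback inhibitors that end their expression. A separate route, the integrated stress response, meets amino acid shortage, ER stress and other insults with the transcription factor ATF4, which turns on genes of amino acid synthesis and transport and, in lasting stress, genes linked to cell death.

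The normalized values of a sample, which are read counts scaled and rounded by the authors, summed to between 10054373 and 10709433 with Afatinib and to between 9481416 and 11094387 with DMSO. Across the genes tested, Afatinib replicates 1 and 2 correlated with each other at 0.984 and with replicate 3 at 0.971 and 0.969 (Pearson's r across genes, log2 scale). Replicate 3 lay nearer to the DMSO samples, with correlations of 0.96 to 0.982, against 0.916 to 0.97 for replicate 1 and 0.914 to 0.963 for replicate 2. The 18 macrophage markers summed to between 140672 and 272893 with Afatinib and to between 131306 and 289130 with DMSO (exact permutation test, two-sided p = 0.417), and in bulk samples fewer cells of a type cannot be told apart from less RNA per cell. The epithelial genes *Krt8*, *Krt14*, *Krt18* and *Krt19* were listed at 0 in all 9 samples, and the 14 lymphocyte markers summed to between 9 and 35 with Afatinib and between 3 and 45 with DMSO. The share of mitochondrial transcripts was between 0.844% and 2.13% with Afatinib and between 0.759% and 1.94% with DMSO (exact permutation test, two-sided p = 0.31).

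The main kinases that Afatinib binds were expressed at low to moderate levels, and their changes were small. *Egfr*, the receptor that Afatinib was developed against, read 3, 3 and 10 in Afatinib replicates 1, 2 and 3, the order kept below, and from 4 to 8 in DMSO. *Erbb2* read between 0 and 3, and *Erbb4* was listed at 0 in all 9 samples. These 3 genes were too low to be tested, and *Erbb3*, at 17 to 27 with Afatinib and 19 to 37 with DMSO, did not pass the test. Of the 10 ligands of these receptors only *Hbegf* was high enough to be tested. *Mapk9* read 107, 91 and 151 with Afatinib and from 125 to 191, with a median of 164, with DMSO. It was lower by 0.49 ± 0.17 on the log2 scale (SE, adjusted p = 0.0252), but the groups overlapped. *Gak*, a kinase of clathrin uncoating, was lower by 0.30 ± 0.11 (SE, adjusted p = 0.0406). Neither call was kept when a trend on transcript length and GC content was removed, as described at the end. *Mapk14* and *Mapkapk2*, with log2 differences of -0.09 ± 0.22 and -0.27 ± 0.17 (SE), did not pass.

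Afatinib changed a large part of the transcriptome. At an adjusted p under 0.05 (limma), 1152 genes were higher than with DMSO, which is 9.06% of the genes tested, and 1628 genes, or 12.8%, were lower. Each list count below is to be read beside these shares. Larger changes were mostly falls. A log2 fold change of 1 or more was found for 92 of the higher genes and one of -1 or less for 438 of the lower ones. All 3 Afatinib samples lay above all 6 DMSO samples for 8.57% of the genes tested and below them for 4.77%, and among the called genes this held for 789 of the higher and 535 of the lower. The median log2 fold change of all genes was 0.034. The calls rest in part on an estimate of the spread from all 59 groups, and with only the 9 samples in the fit 200 genes were higher and 284 lower. Without Afatinib replicate 2 the counts were 277 and 564, without replicate 1 they were 581 and 900, and without replicate 2 of the second DMSO set they were 705 and 1168.

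The strongest rises were in the ATF4 response. *Atf4* itself (chr15:80255184-80257545 in mm10) read 4987, 5933 and 5834 with Afatinib and from 1293 to 1753 with DMSO, with a median of 1671. It was 3.51-fold higher (log2 1.81 ± 0.09 SE, adjusted p = 8.29e-36), and the Afatinib samples stood well apart from the DMSO samples. *Chac1*, which degrades glutathione, had the largest rise of all genes named, from 5 to 14 with DMSO, with a median of 6.5, to 93, 188 and 206 (17.6-fold, log2 4.14 ± 0.47 SE, adjusted p = 1.66e-11). *Trib3*, a pseudokinase that restrains ATF4 and AKT, read 601, 983 and 855, against 35 to 93, with a median of 58, with DMSO (14.1-fold, log2 3.81 ± 0.34 SE, adjusted p = 3.69e-17). Both genes were low in every DMSO sample. *Ddit3*, which encodes the transcription factor CHOP, read 138, 157 and 97, against 22 to 76 with DMSO. It was 3.71-fold higher (adjusted p = 0.00129), and the margin between the groups was narrow because replicate 1 of the second DMSO set read 76 while the other DMSO samples read 36 or less.

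**Figure D1:**
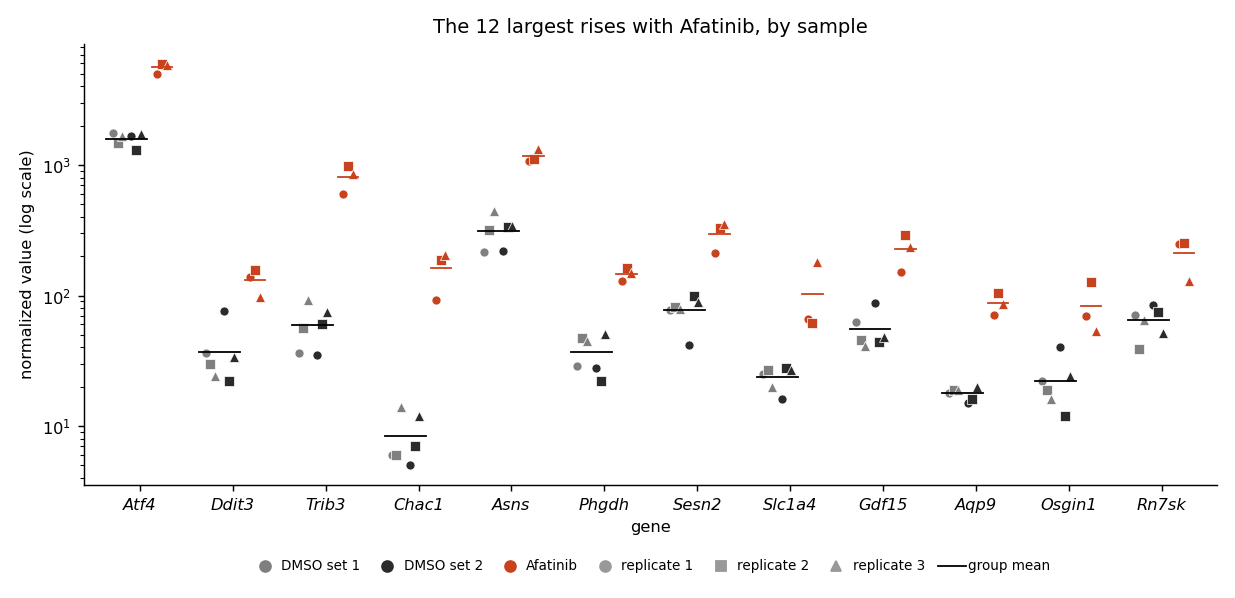
Normalized value (log scale) in each sample of the 12 genes with the largest rise among called genes with a mean of at least 50 in the higher group and no overlap. Grey and black symbols are the 2 DMSO sets, red symbols Afatinib, shapes mark the replicate numbers and lines the group means. For each gene all 3 Afatinib samples sit above all 6 DMSO samples, and for *Atf4* they sit between 4987 and 5933.

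Genes of amino acid supply rose together with these regulators. *Asns*, the asparagine synthetase, read 1073, 1119 and 1333, against 217 to 442, with a median of 326, with DMSO (3.87-fold, adjusted p = 1.19e-10). *Phgdh*, the first enzyme of serine synthesis, read 130, 162 and 148, against 22 to 51 (4.05-fold, adjusted p = 2.83e-06). The next enzymes of that route, *Psat1* and *Psph*, were higher by 0.86 and 1.09 on the log2 scale, and *Shmt2* and *Mthfd2*, which carry the serine carbon into mitochondrial folate, by 1.00 and 1.14. Among amino acid transporters, *Slc1a4*, for serine and alanine, read 66, 62 and 180, against 16 to 28 with DMSO, and its rise was largest in replicate 3. *Slc3a2* and *Slc7a5*, the 2 chains of the leucine transporter, were higher by 1.09 and 0.94. The tRNA synthetases split. *Aars*, *Cars*, *Nars*, *Sars*, *Tars* and *Yars* were higher by 0.57 to 1.11 on the log2 scale, while *Eprs*, *Gars*, *Iars*, *Lars* and *Wars*, with log2 differences from -0.50 to 0.10, and the tRNA exporter *Xpot* did not pass. The translation repressor *Eif4ebp1* was higher by 1.06 and *Sesn2*, a stress-induced inhibitor of mTORC1, by 1.93 (211, 328 and 351, against 42 to 99 with DMSO).

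In all, 36 genes of the ATF4 list were tested, 21 were higher and 1 was lower, and the median log2 fold change was 0.86. In each of the 21, all 3 Afatinib samples lay above all 6 DMSO samples. The lower gene was *Ddit4*, an inhibitor of mTORC1 also on the list of p53 targets, at 2, 1 and 3 against 5 to 14. Several well-known ATF4 genes did not pass. *Slc7a11*, the cystine transporter, read 371, 352 and 472, against 159 to 518 (log2 0.41 ± 0.22 SE, adjusted p = 0.163, but 0.70 and adjusted p = 0.000526 with the length and GC trend removed), and *Ppp1r15a*, which encodes the phosphatase subunit GADD34, lay below DMSO in all 3 samples at 1000 to 1109 (log2 -0.34 ± 0.14 SE, adjusted p = 0.0682). The count of higher genes was 17 with only the 9 samples in the fit and between 17 and 21 when any one of the 9 libraries was left out.

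C/EBP-ATF composite sites, at which ATF4 binds with C/EBP proteins, share the core TGATGNAA. This core was searched on both strands in RefSeq promoter windows of GRCm38.p6, from 250 bases before to 50 bases after each annotated start, as the only motif searched. It was in 6 of the 17 called ATF4 list genes that have a window (35.3%), in 4.3% of all genes higher with Afatinib, in 2.96% of all genes tested and in 4.51% of all genes with a window. The list holds known ATF4 genes, and its uncalled genes were not counted apart. Its share therefore cannot relate the motif to the rise with Afatinib. The 4 genes with a match before the start are shown, since they include the gene with the largest rise. Each stretch is given on the strand of the gene, 5′ to 3′, with the match in capitals, TTGCATCA being the core read on the opposite strand.
*Chac1*, chr2:119351009-119351096, plus strand: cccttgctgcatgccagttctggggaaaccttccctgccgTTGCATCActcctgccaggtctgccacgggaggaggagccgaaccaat
*Asns*, chr6:7693210-7693272, minus strand: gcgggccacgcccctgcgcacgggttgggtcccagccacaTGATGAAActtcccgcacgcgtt
*Aars*, chr8:111033690-111033777, plus strand: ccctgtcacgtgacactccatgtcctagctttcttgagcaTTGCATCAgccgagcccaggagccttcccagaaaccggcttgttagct
*Tars*, chr15:11399659-11399713, minus strand: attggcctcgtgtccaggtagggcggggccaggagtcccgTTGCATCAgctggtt
The match began 193 bases before the start of *Chac1*, 112 before *Aars*, 23 before *Asns* and 15 before *Tars*. In *Trib3* and *Yars* it began 14 and 3 bases after the start, and *Aars* had a second match 9 bases after it. The windows of *Atf4*, *Ddit3*, *Phgdh* and *Sesn2* held no match. A match describes the sequence only, and binding was not measured here.

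The remaining genes among the 12 largest rises were not on the ATF4 list, and neither was *Slc1a4*, described above. *Gdf15*, a secreted stress cytokine known as a target of ATF4 and CHOP, read 151, 290 and 237, against 41 to 88 with DMSO (4.06-fold, adjusted p = 0.000399). *Aqp9*, a channel for water and glycerol, read 71, 104 and 86, against 15 to 20 (4.64-fold, adjusted p = 1.85e-06). *Osgin1*, a target of the antioxidant transcription factor NRF2, read 70, 126 and 53, against 12 to 40. The margin to DMSO was wide for *Aqp9* and narrow for *Osgin1*. Of 29 NRF2 genes tested, 7 were higher and 2 lower, beside 9.06% and 12.8% of all genes. Their median log2 fold change was 0.32, and without Afatinib replicate 2 the counts were 4 and 1. The called genes included *Prdx1*, a peroxiredoxin, and *Esd*, an esterase, both higher by 0.94. *Abcc1*, an exporter of glutathione conjugates, was lower by 0.95. *Rn7sk*, the small nuclear RNA that holds the elongation kinase P-TEFb inactive, read 246, 254 and 130, against 39 to 85. It is not a typical polyA transcript.

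The main gene of the ER chaperone response did not pass the test. *Hspa5*, the main ER chaperone, read 11188, 11525 and 13131 with Afatinib and from 9600 to 12118 with DMSO (log2 0.08 ± 0.10 SE, adjusted p = 0.579). Of 22 genes of the unfolded protein response tested, 2 were higher and 5 lower, with a median log2 fold change of -0.13, and without Afatinib replicate 2 none was higher and 2 lower. *Xbp1*, a transcription factor of this response, was lower by 1.04 ± 0.22 (767, 791 and 871, against 1134 to 2226), and *Herpud1*, of ER-associated degradation, was higher by 0.71 ± 0.20. In the heat shock list, 3 of 17 genes were higher and 2 lower. *Hspa4*, a cytosolic chaperone of the HSP110 class, fell the most, from 391 to 1548 with DMSO to 133, 115 and 183 (5.14-fold lower, adjusted p = 5.36e-07). Of 17 p53 targets 1 was higher and 4 lower, of 17 FOXO-linked genes 1 and 2, and of 7 LXR targets 0 and 1. For all genes tested the shares were 9.06% higher and 12.8% lower.

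The largest falls included feedback inhibitors of MAP kinase and cytokine signalling. *Dusp1* (chr17:26505591-26508472), the phosphatase that switches off p38 and JNK, read 1214, 1357 and 1513 with Afatinib. With DMSO it read 23940, 20808 and 7541 in the first set and 21239, 27409 and 9752 in the second. It was 12.3-fold lower (log2 -3.62 ± 0.40 SE, adjusted p = 2.85e-12), and the 2 lowest DMSO values, both of replicate 3, were still far above Afatinib. *Socs1*, which blocks JAK kinases, read 183, 110 and 244, against 618 to 5735 with a median of 2718.5 (11.9-fold lower, adjusted p = 5.12e-07). Here too the lowest DMSO samples were replicate 3 of each set, at 618 and 754. *Errfi1*, an inhibitor that binds the ERBB receptors themselves, read 367, 385 and 283, against a tight 1338 to 1699, with a median of 1621.5, with DMSO (4.59-fold lower, adjusted p = 3.1e-10). *Phlda1* read 30, 50 and 98, against 170 to 267 (4.04-fold lower). *Dusp6*, the phosphatase specific for ERK, went the other way, from 24 to 50 with DMSO to 110, 112 and 66 (2.76-fold higher, adjusted p = 7.36e-06).

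**Figure D2:**
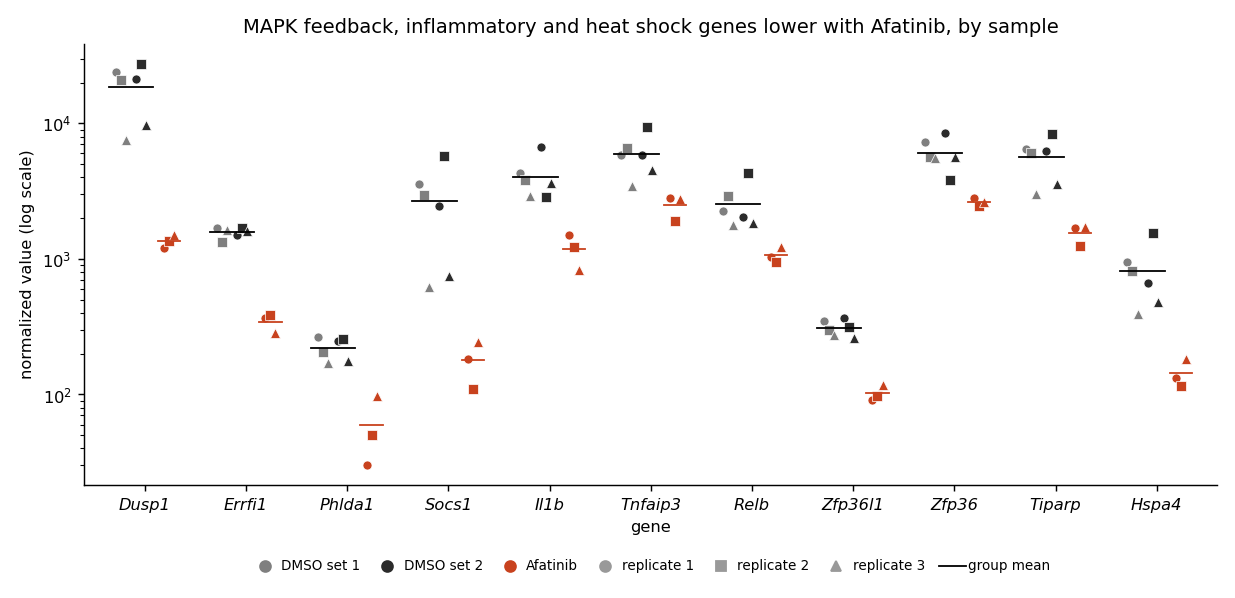
Normalized value (log scale) in each sample of 11 genes of MAPK feedback, cytokine signalling, mRNA decay and heat shock that were lower with Afatinib, with symbols as in the plot of the rises. All 3 Afatinib samples sit below all 6 DMSO samples for each gene, and in *Dusp1* and *Socs1* the lowest DMSO samples are those of replicate 3.

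Of 15 genes of MAPK feedback tested, 5 were lower and 1 higher, and 5 were lower in each fit that left out a library. The others lower were *Dusp16* and *Dusp2*, by 1.15 and 1.01 on the log2 scale. Among 26 AP-1, EGR and related immediate-early genes, 2 were higher and 3 lower, near the shares of all genes. None passed with only the 9 samples in the fit, and 1 was lower without Afatinib replicate 2. *Fosl2* was lower by 1.32 ± 0.31 (247, 168 and 145, against 259 to 834) and *Jun*, the main target of JNK, by 0.87 ± 0.26 with overlapping groups (1087, 818 and 1232, against 1187 to 3141). *Fos* read 142 to 184 with Afatinib and 144 to 182 with DMSO and did not pass. The JNK and p38 kinases and their upstream kinases had 1 higher and 4 lower genes of 17, beside 9.06% and 12.8% of all genes. Among the lower were *Map2k4* at -0.66 and *Mapk11* at -0.86, and none of the 17 passed with only the 9 samples in the fit. Without Afatinib replicate 2 none was higher and 1 lower, and with the length and GC trend removed none and 2.

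Many receptors and transducers of cytokine signals were lower. Of 29 genes of the SOCS and JAK-STAT list tested, 13 were lower and none was higher, with a median log2 fold change of -0.46 and a median exonic length of 3968 bases. *Il6ra* and *Il6st*, the 2 chains of the IL-6 receptor, were lower by 1.80 ± 0.32 and 1.07 ± 0.20. *Il6ra* read 103, 125 and 152, against 224 to 782 with DMSO, whereas *Il6st* overlapped because Afatinib replicate 3 read 528. *Socs3*, *Stat3*, *Jak1* and the interferon receptor *Ifnar1* were also lower, by 0.97, 0.49, 0.69 and 0.69. In 7 of the 13 genes all Afatinib samples lay below all DMSO samples. The count was 7 with only the 9 samples in the fit and 8 with the first DMSO set alone.

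Cytokines induced by LPS moved in both directions. Among 16 tested, 1 was higher and 3 lower, beside 9.06% and 12.8% of all genes, and without Afatinib replicate 2 these counts were 0 and 1. *Il1b* (chr2:129364578-129371139) read 1496, 1215 and 822 with Afatinib and from 2842 to 6751, with a median of 3731.5, with DMSO (3.38-fold lower, log2 -1.76 ± 0.41 SE, adjusted p = 0.000733). *Il1a* read 225, 156 and 100, against 237 to 627 (2.31-fold lower, adjusted p = 0.0217), and the growth factor *Csf1* was lower by 0.79 with overlap. Both IL-1 genes were thus below every DMSO sample, but the call of *Il1a* was lost without Afatinib replicate 2 and with only the 9 samples in the fit. *Tnf* read 15304, 15169 and 9438, above its range of 6668 to 8932 with DMSO in all 3 samples, but did not pass the test (log2 0.75 ± 0.31 SE, adjusted p = 0.0645). *Il6* (380 to 701, against 337 to 757) and *Il12b* (1209 to 1905, against 1282 to 1936) overlapped with DMSO and did not pass. *Il10* read 463 to 795 and 639 to 2089, and also did not pass.

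Chemokines went in both directions, with 3 higher and 4 lower of 20, beside 9.06% and 12.8% of all genes. Without Afatinib replicate 2 the counts were 1 and 0, and with only the 9 samples in the fit they were 3 and 1. *Ccl2*, which draws monocytes, read 14947, 15472 and 16842, against 6977 to 8431 with a median of 7788 with DMSO, and was 2.05-fold higher with little spread (log2 1.03 ± 0.12 SE, adjusted p = 5.57e-11). *Ccl7* and *Cxcl1* were higher by 0.96 and 0.63, and *Ccl24*, *Cxcl14*, *Cx3cl1* and *Cxcl3* lower by 1.30, 1.26, 1.03 and 0.61. Of 80 interferon-stimulated genes tested, 2 were higher and 4 lower, fewer in both directions than the shares of all genes. *Cxcl10* read between 66912 and 102964 with Afatinib and between 56043 and 112277 with DMSO. Of the 4 lower, *Socs1* was the only one with a log2 fold change beyond -1.

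Some subunits and inhibitors of NF-kB and some proteins that destroy inflammatory mRNAs were lower. Of 25 genes of NF-kB subunits and feedback, 6 were lower and none higher, beside 12.8% lower and 9.06% higher of all genes. With only the 9 samples in the fit 3 were lower. *Tnfaip3*, the ubiquitin editor A20, read 2813, 1911 and 2769, against 3424 to 9371 with a median of 5852 (2.3-fold lower, adjusted p = 5.52e-08). *Relb* was lower by 1.18 ± 0.20 (1039, 946 and 1219, against 1793 to 4280) and *Nfkbiz* by 0.73 ± 0.11. *Nfkbia*, the main inhibitor of NF-kB, did not pass (log2 -0.20 ± 0.09 SE, adjusted p = 0.107), although it was lower by 0.36 (adjusted p = 0.0176) with the length and GC trend removed. Among 16 regulators of mRNA decay, which are long genes with a median of 5402 bases, 3 were lower and none higher, a share near that of all genes. *Zfp36l1* read 91, 97 and 118, against 260 to 367 with a median of 306 (3.02-fold lower, adjusted p = 1.78e-09). *Zfp36*, which encodes the tristetraprolin that binds *Tnf* mRNA, read 2810, 2468 and 2628, against 3844 to 8441 (2.24-fold lower). The nuclease gene *Zc3h12a* was lower by 0.98 ± 0.16, with replicate 3 inside the DMSO range. The 5 lower genes of the 26 in the TLR4 pathway included *Chuk* at -0.93 and *Traf6* at -0.79, and *Irf3* was higher by 0.51. In the fit without Afatinib replicate 2, 1 was lower and none higher.

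Enzymes of inflammatory mediators moved both ways, with 3 higher and 4 lower of 15, beside 9.06% and 12.8% of all genes. *Ptgs2*, the inducible cyclooxygenase, read 1011, 359 and 2172, against 1280 to 3930 (log2 -1.54 ± 0.32 SE, adjusted p = 0.000143), and *Ptges*, which makes prostaglandin E2 from its product, was lower by 1.18 ± 0.27. The Afatinib values of *Ptgs2* were far apart, and replicate 3 lay within the DMSO range. *Arg2*, the mitochondrial arginase, was higher by 1.20 ± 0.34. With Afatinib replicate 2 left out, 1 gene of this list was higher and 1 lower.

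Most genes of lipid synthesis that changed were lower. Of 33 SREBP targets of cholesterol and fatty acid synthesis tested, 13 were lower and 2 higher, with a median log2 fold change of -0.24 and a median exonic length of 3460 bases. *Scd2*, *Fasn* and *Acaca*, of fatty acid synthesis and desaturation, were lower by 1.44, 1.26 and 0.94, each with Afatinib replicate 3 inside the DMSO range. *Fasn*, for example, read 136 and 124 in replicates 1 and 2 and 537 in replicate 3, against 222 to 822 with DMSO. The count of lower genes was 3 with only the 9 samples in the fit and 6 without Afatinib replicate 2.

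Several smaller groups held large single changes. Of 7 genes of the aryl hydrocarbon receptor, 4 were lower, led by *Tiparp* (1682, 1254 and 1708, against 2995 to 8313, 3.45-fold lower). *Hif1a*, the hypoxia factor, was lower by 1.30 ± 0.21 (611, 433 and 951, against 1196 to 2501) and *Pdk1*, one of its targets, by 1.40 ± 0.26, while 24 of the 29 genes of glycolysis and hypoxia did not pass. Of 16 BCL2 family genes 3 were higher and 3 lower, with *Bcl2l1*, which protects from apoptosis, higher by 0.47 and *Bcl2l11*, which promotes it, lower by 0.51. The cell cycle list had 3 higher and 3 lower of 49, and the lysosome and autophagy list 7 and 6 of 51. Over all genes tested the shares were 9.06% and 12.8%. Without Afatinib replicate 2 the aryl hydrocarbon receptor list had 2 lower genes, the BCL2 family 1 higher and 1 lower, the cell cycle list 0 and 1, and the lysosome and autophagy list 3 and 3. Of the 17 macrophage markers tested none was higher and 2 were lower, the myeloid factor *Spi1* by 0.66 ± 0.19 and the receptor *Mertk* by 0.59 ± 0.17, a share near that of all genes. Neither passed without Afatinib replicate 2 or with only the 9 samples in the fit, and *Mertk* did not pass with the length and GC trend removed (adjusted p = 0.106). The 11 neutrophil markers tested had none called. The summed dendritic cell markers were higher (3352 to 4713, against 1734 to 3578, exact permutation test, two-sided p = 0.0238), and most of that sum was *Bst2*, which is also an interferon-stimulated gene. The dendritic cell marker *Xcr1* was lower, by 0.74 on the log2 scale (29, 40 and 30, against 44 to 72).

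**Figure D3:**
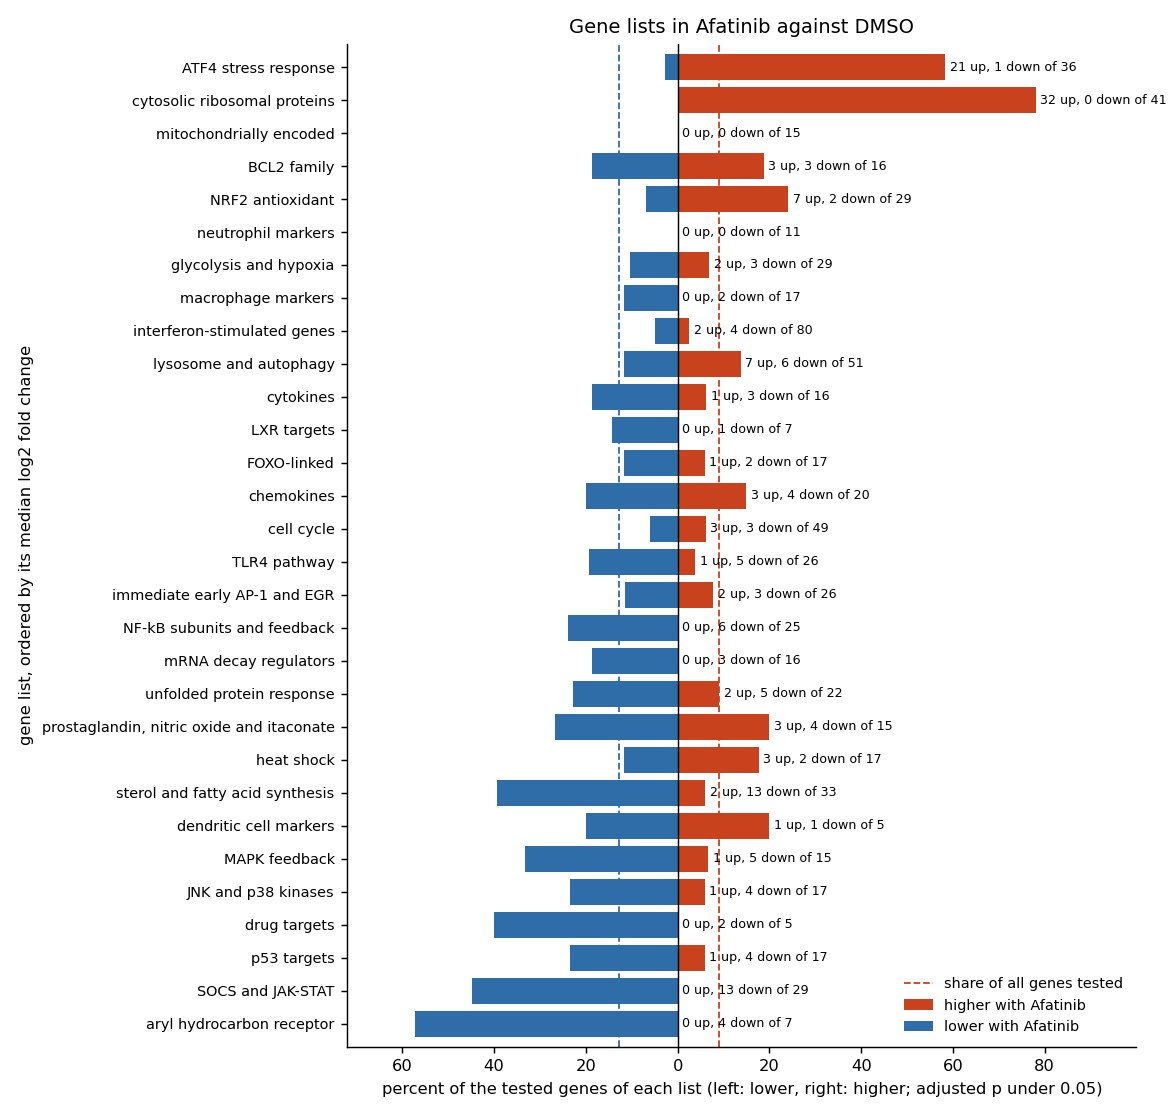
Share of the tested genes of each list that were higher (right) or lower (left) with Afatinib at an adjusted p under 0.05, in percent, for the lists reported with at least 5 tested genes, ordered by median log2 fold change. The dashed lines are the shares of all genes tested, 9.06% and 12.8%, and the ATF4 list (21 of 36 higher) and the cytosolic ribosomal proteins (32 of 41 higher) stand far beyond them.

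Among the 12 largest falls, those not yet named were of genes with varied roles. *Scand1* read 12, 4 and 16, against 29 to 355 with DMSO, *F8a* 2, 7 and 10, against 22 to 103, and *Acvr2a*, an activin receptor, 26, 19 and 42, against 61 to 263. The rest were *0610012G03Rik*, *C1qbp*, *Adpgk*, *Nenf*, *Tmem221*, *Sap30* and *Akirin1*, with log2 fold changes from -3.14 to -2.41. The DMSO samples of these genes were themselves spread, with *Scand1* at 355 in replicate 1 of the first set and at 29 in its replicate 3. For each of these genes replicate 3 was the lowest of both DMSO sets. With the 3 other inhibitors compared below, their log2 differences from DMSO were also negative, from -1.94 (*Scand1*, Lapatinib) to -0.03 (*F8a*, PH797804). *Scand1* and *Adpgk* did not pass the test of Afatinib against any of the 3, and *Nenf* did not pass against Lapatinib. The rest were lower with Afatinib than with each of the 3. For some of them Lapatinib replicate 1 nonetheless lay within the Afatinib range. It read 69 for *C1qbp* (Afatinib 46, 38 and 90) and 102 for *0610012G03Rik* (51, 62 and 120). Lapatinib replicates 2 and 3 read 383 and 413, and 591 and 449. All 12 rises and all 12 falls kept their call and direction in each fit that left out a library. The same held with only the 9 samples in the fit and with the length and GC trend removed. These genes were chosen as the largest called changes without overlap in the same samples. Keeping a direction when a library was left out was thus fixed by the choice and is no separate support.

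The ribosomal proteins showed a small and broad rise that moved with transcript length. Of 41 genes for cytosolic ribosomal proteins tested, 32 were higher and none lower, with a median log2 fold change of 0.48. *Rpl37*, for example, read 4116, 4229 and 3248, against 1821 to 2683 with DMSO, and the whole list summed to between 172341 and 215352 with Afatinib and between 122194 and 157249 with DMSO (exact permutation test, two-sided p = 0.0119, the smallest that 3 against 6 samples allow). Many ribosomal protein genes have near-identical pseudogene copies, so single members are uncertain. Their median exonic length was 795 bases. Short genes in general were higher and long genes lower. The median log2 fold change was 0.38 for genes under 1000 bases and fell to -0.27 for those over 5000 bases. The share of genes called higher went from 25.2% to 1.58% between these classes and the share called lower from 1.26% to 28.1%. Across the 12714 genes Spearman's correlation between fold change and exonic length was -0.451, and with GC content it was 0.0037 in the 11994 genes that could be matched. Genes are not independent replicates, so no p is given.

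**Figure D4:**
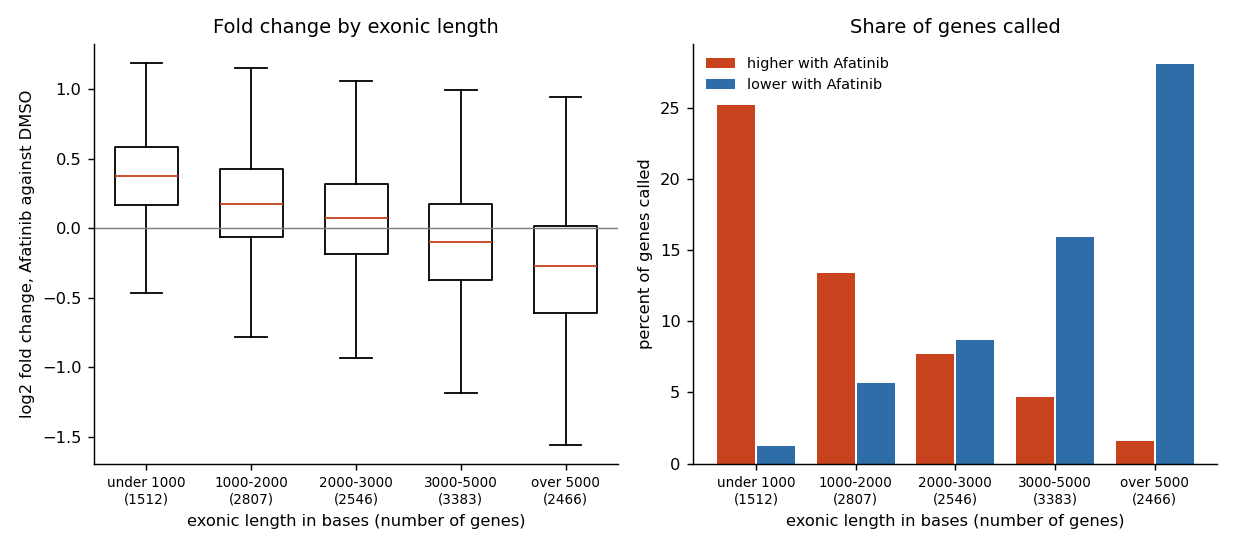
Log2 fold change of Afatinib against DMSO (left, boxes with the median and quartiles, whiskers to the last point within 1.5 box lengths, points beyond not drawn) and percent of genes called higher or lower (right), by exonic length in bases with the number of genes in each class. The median goes from 0.38 in the shortest class to -0.27 in the longest.

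The length trend was uneven among libraries. The deviation of a sample from the DMSO mean correlated with length at -0.42, -0.455 and -0.194 in the 3 Afatinib samples. In DMSO the values ran from -0.426 in replicate 3 of the first set to 0.324 in its replicate 2. When a smooth trend on length and GC content was removed from every sample, a correction chosen after seeing the data, 907 genes were higher and 1106 lower, and 1612 genes were called in the same direction with and without it. The count of higher ribosomal proteins went from 32 to 14 under this correction, while the ATF4 list had 22 higher genes, the SOCS and JAK-STAT list 9 lower, the sterol list 10 lower and MAPK feedback 5 lower. Without Afatinib replicate 2 9 ribosomal proteins were higher, and with only the 9 samples in the fit 8 were.

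Afatinib was then set beside 3 inhibitors that share a listed target or class with it. Lapatinib is a reversible inhibitor of the EGFR and ERBB2 kinases, Tanzisertib inhibits JNK and PH797804 inhibits p38. Each was used at its own concentration, and these differ, so each test compares the groups as dosed, with the same 3 Afatinib samples in all of them. Against Lapatinib, 207 genes were higher with Afatinib (1.63% of the genes tested) and 842 lower (6.62%), but 477 and 349 with the length and GC trend removed. Against Tanzisertib 527 were higher (4.15%) and 1054 lower (8.29%), and against PH797804 153 were higher (1.2%) and 898 lower (7.06%). The mitochondrial share was 1.92% to 3.71% in the Lapatinib samples, against 0.844% to 2.13% with Afatinib, and its part in that comparison was not tested. Without Afatinib replicate 2 the 3 comparisons had 61, 116 and 43 genes higher and 150, 292 and 202 lower. Without replicate 1 they had 372, 465 and 349 lower. Of the 41 genes for cytosolic ribosomal proteins, none passed the test against Lapatinib or PH797804, and 20 were higher than with Tanzisertib. *Rpl37*, for example, differed from DMSO by 0.79 with Afatinib, 0.77 with Lapatinib, 0.05 with Tanzisertib and 0.51 with PH797804 (log2 scale).

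The ATF4 genes separated Afatinib from all 3. *Atf4* read 1636 to 1843 with Lapatinib, 1429 to 1632 with Tanzisertib and 2143 to 2440 with PH797804, against 4987 to 5933 with Afatinib. The log2 differences were 1.67 ± 0.11, 1.85 ± 0.11 and 1.29 ± 0.11 (SE, adjusted p = 5.47e-27, 7.37e-31 and 1.14e-18). *Trib3* read 51 to 60, 46 to 86 and 133 to 246 with the 3 inhibitors, against 601 to 983. Afatinib was thus highest for both genes, and PH797804 next. Of the 36 ATF4 list genes, 16 were higher with Afatinib than with Lapatinib, 20 than with Tanzisertib and 15 than with PH797804. For *Ddit3* no difference from Lapatinib was detected, where it read 153, 116 and 74 (log2 difference 0.22 ± 0.53 SE, 95% interval -0.83 to 1.28, adjusted p = 0.842). Against PH797804 its log2 difference was 1.56 ± 0.53 (SE, 95% interval 0.50 to 2.61), just short of the threshold after adjustment (adjusted p = 0.0504).

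**Figure D5:**
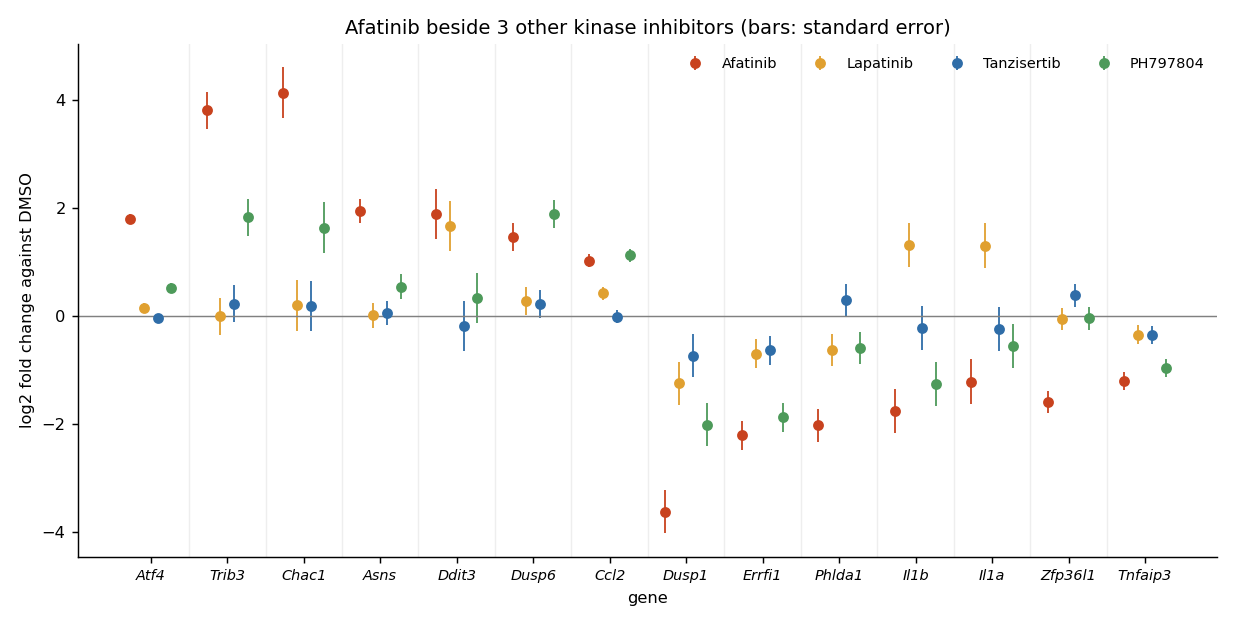
Log2 fold change against the same 6 DMSO samples, with its standard error, for 14 genes with Afatinib and the 3 other inhibitors, each at its own concentration. *Trib3* and *Chac1* are highest with Afatinib, *Il1b* is lower with Afatinib (-1.76) and higher with Lapatinib (1.32), and *Errfi1* is at -2.20 with Afatinib and -1.87 with PH797804.

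The IL-1 genes separated Afatinib from Lapatinib. Other ERBB inhibitors of the study were not compared here. *Il1b* read 10957, 10205 and 8016 with Lapatinib, above all DMSO samples, and 1496, 1215 and 822 with Afatinib (log2 difference -3.08 ± 0.47 SE, adjusted p = 1.64e-06). *Il1a* differed in the same way by -2.52 ± 0.47 (adjusted p = 0.000102) and *Serpinb2*, which encodes a protease inhibitor of activated macrophages, by -3.03 ± 0.67. Against PH797804 no such difference was detected, as *Il1b* read 2280, 1422 and 1315 there (log2 difference -0.50 ± 0.47 SE, 95% interval -1.44 to 0.43, adjusted p = 0.628).

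Feedback genes of the MAP kinases separated Afatinib from PH797804 only in part. *Errfi1* read 497, 479 and 334 with PH797804, a log2 difference of -0.33 ± 0.31 (SE, 95% interval -0.94 to 0.28, adjusted p = 0.628), and *Dusp6* 168, 116 and 105, a difference of -0.44 ± 0.30 (SE, 95% interval -1.03 to 0.15, adjusted p = 0.463). *Dusp1* was lower with Afatinib than with each of them, with log2 differences of -2.38 ± 0.46 against Lapatinib, -2.88 ± 0.46 against Tanzisertib and -1.61 ± 0.46 against PH797804 (adjusted p = 0.000173, 1.64e-06 and 0.0126). *Zfp36l1*, at 91 to 118 with Afatinib, read 268 to 343, 331 to 461 and 275 to 322 with the others and was lower in all 3 comparisons (adjusted p = 1.6e-06, 1.98e-10 and 1.63e-06). *Jun* was lower than with PH797804, by 1.66 ± 0.30. None of the 20 chemokines and 15 mediator enzymes tested passed against PH797804. In the NF-kB list 3 of 25 genes and in the mRNA decay list 2 of 16 were lower with Afatinib, none higher. For all genes the shares were 1.2% higher and 7.06% lower. *Ccl2* showed a log2 difference of -0.10 ± 0.14 (SE, 95% interval -0.37 to 0.18, adjusted p = 0.774). *F8a* and *Irf4*, the latter a transcription factor of alternative activation, were lower with Afatinib than with each of the 3.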

How the data were processed

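PolyA RNA of BMDM was made into libraries by SMART-seq2 with Tn5. Per the submitters' processing notes and the methods, the authors aligned reads to mm10 with TopHat2 2.1.1, kept 1 alignment for each read, removed blacklisted regions with bedtools 2.29.2, counted reads on the exons of curated RefSeq genes with R/Bioconductor packages and scaled each sample on invariant genes. The notes also name R 3.6.2. The deposited values are rounded and enter this report as a score, called normalized values. Counting is not stated to use strand, so overlapping genes such as *Txnip* and its antisense neighbour cannot be told apart. All columns matched a sample (0 did not). Coordinates are those of the deposited mm10 table.

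The test was limma 3.58.1 (R 4.3.3) with a variance trend on log2(normalized value + 1), fitted to all 59 groups, with p-values adjusted by Benjamini and Hochberg over 12714 genes, and a fold change is on this scale, which understates changes of low genes. Sums and shares were compared by exact permutation over the 84 ways to choose 3 of 9 samples. The fit was tested on simulated data. These were independent values with the same dispersion for every gene and no library, replicate or length effect. The simulation therefore cannot give the rate of false calls in these libraries. The methods call the replicates independent and biological. Depth is known only from the totals of scaled values, so counting intervals are not given, and values near 10 carry a large counting error.

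Genes named are the 12 largest rises and 12 largest falls with a mean of at least 50 in the higher group and no overlap, up to 4 called genes of each list, all drug targets, and up to 6 genes for each inhibitor comparison. *Tnf*, *Il6*, *Il10*, *Il12b*, *Cxcl10*, *Nfkbia*, *Fos*, *Hspa5*, *Ppp1r15a*, *Slc7a11*, the further ATF4 genes and other list genes given by fold change alone were named after their values were seen. Some genes and 1 gene list are not reported here. The members and lists were chosen with earlier results of these data known. The alternatives were other pseudocounts, filters, scaling and DMSO sets, a fit of the 9 samples, no variance trend, a replicate block with and without the mitochondrial share, leaving out each library and a log2 fold change of at least 1. Removal of a spline trend on exonic length and GC content (GENCODE M21, 94.3% of genes matched) was added after seeing the data. Figures were drawn with Python 3.11.15 and matplotlib 3.10.9.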

Additional observations from a re-analysis of the deposited data

Results flagged for a closer look

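Of 151 values checked for a DMSO sample far from the other 5, 11 had one, where about 5% of groups would by chance. Replicate 2 of the second DMSO set was the outlying sample for 7 genes, each time the highest. These were *Nfkbiz* (15380), *Mcoln1* (445), *Dnajc3* (1300), *Pdk1* (1056), *Hif1a* (2501), *Ccna2* (3475) and *Pim3* (31), all lower with Afatinib. Replicate 1 of the second set was lowest for *Sesn2* (42) and highest for *Ddit3* (76), both higher with Afatinib. Replicate 3 of the first set was lowest for *Tab3* (14) and *Bcl2l11* (5795), both lower with Afatinib.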

How the results depend on the processing

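The counts of genes changed by Afatinib depended on the fit more than the ATF4 and MAPK feedback lists did. Against DMSO, 415 genes were higher and 755 lower with the first DMSO set alone, 200 and 284 with only the 9 samples in the fit, and 92 and 438 at a log2 fold change of at least 1. When any one library was left out the counts ran from 277 to 1472 higher and from 564 to 2079 lower. Across the genes tested, same-numbered Afatinib and DMSO samples gave no clear pairing. A correlation of the 2 DMSO sets by number was not computed. For *Dusp1*, *Socs1* and *Scand1*, however, replicate 3 was the lowest of each set. The mitochondrial share was highest in replicate 1 with Afatinib, in both DMSO sets and with Lapatinib, Tanzisertib and PH797804. Some values thus varied with the replicate number, which the main fit did not include. The deviations of same-numbered Afatinib and DMSO samples correlated at 0.32 and 0.51 for number 1, at -0.14 and -0.3 for number 2 and at -0.2 and 0.19 for number 3, and not every sample correlated best with its own number. With the replicate number as a block, 1733 genes were higher and 2200 lower against DMSO, 563 and 1392 against Lapatinib, 1006 and 1595 against Tanzisertib, and 294 were higher against PH797804. The block, with or without the mitochondrial share, changed no call of the named genes called against DMSO. Scaling by the median of ratios moved the median log2 fold change of all genes from 0.03 to -0.01 and the share of higher genes among those called to 33.5%, and it gave 327 genes higher than with Lapatinib and 351 higher than with Tanzisertib. With the length and GC trend removed, a correction added after seeing the data, 477 genes were higher and 349 lower than with Lapatinib, and 266 higher and 433 lower than with PH797804. Leaving out an Afatinib library gave 61 to 153 higher and 150 to 1259 lower against Lapatinib, 116 to 702 and 292 to 1556 against Tanzisertib, and 43 to 190 and 202 to 1437 against PH797804.

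For the lists, only the 9 samples in the fit left 3 sterol genes lower, 7 SOCS and JAK-STAT genes lower and 8 ribosomal proteins higher, and the first DMSO set alone left 8 SOCS and JAK-STAT genes and 17 ribosomal proteins. Removing the length and GC trend left 14 ribosomal proteins higher, or 21 together with the replicate block. At a log2 fold change of at least 1 the counts were 13 for ATF4, 2 for sterol, 4 for SOCS and JAK-STAT and 0 for ribosomal proteins. Leaving out a library gave 6 to 14 sterol genes and 9 to 35 ribosomal proteins. Among genes that did not pass the test, the direction changed for *Mapk14* and *Cxcl10* with the length and GC trend removed, to 0.03 and -0.06 with or without the block, and when a library was left out for *Mapk14* (-0.27 to 0.07), *Il6* (-0.32 to 0.12), *Il12b* (-0.31 to 0.02) and *Cxcl10* (-0.02 to 0.32). Of the 133 named genes that passed, none changed direction under any alternative and 75 kept their call whichever library was left out. The call was lost by 66 with only the 9 samples in the fit, by 53 without Afatinib replicate 2, by 41 with the first DMSO set alone and by 25 with the length and GC trend removed.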

Other observations

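Gene families not described above were chosen by their names after the data had been seen. Of 77 nuclear genes for subunits of the respiratory chain and ATP synthase, with a median exonic length of 729 bases, 30 were higher with Afatinib and none lower. The mitochondrial ribosome had 24 higher and 1 lower of 75 (median length 1134 bases), and the proteasome 10 higher and none lower of 38 (1446 bases). Over all genes tested the shares were 9.06% higher and 12.8% lower. In the 1482 genes of at most 1000 bases that are not on the ribosomal list, 24.2% were higher, with a median log2 fold change of 0.38. Among all genes of 1000 to 2000 bases 13.4% were higher and 5.66% lower, and among those of 3000 to 5000 bases 4.67% and 15.9%. Zinc finger genes named Zfp with a number, which are long at a median of 3762 bases, had 18 higher and 15 lower of 240, with a median log2 fold change of 0.16. The 15 genes of the mitochondrial genome tested had none called in either direction, with log2 fold changes from 0.23 to 1.08.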
